A study of Mus musculus with 123 samples.

Results

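The regions described here are 7611 places in the mouse genome where a peak of histone H3 lysine 4 (H3K4) methylation was called in each of 3 deposited peak lists, named ES1, ES2 and ES3. They were chosen by the peak calls and the peak widths themselves. Touching or overlapping peaks of the 3 lists on chromosomes 1 to 19 were merged into 30974 union regions, and a member is a union region with at least 1 peak of every list and no single peak of 10000 bp or wider. The members made up 24.6% of the union regions. A peak of every list without the limit on width was found in 8205 union regions (26.5%), so that the limit left out 594 of them. These shares describe the choice and are not findings.

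The series profiled single cells in droplets: chromatin was barcoded cell by cell, then pooled and immunoprecipitated. Its 123 libraries comprise 86 of H3K4me2 and 37 of H3K4me3, from V6.5 mouse embryonic stem cells (mESC) grown with serum and leukaemia inhibitory factor, from mouse embryonic fibroblasts (MEF), and from EML cells, a blood progenitor line. The sources used here do not give the mark, the libraries or the number of cells behind each list, so ES1, ES2 and ES3 are read by their names as 3 sets of stem cells from pooled data and cannot be tied to a labelled group. Whether cells were placed in a list by the same profiles in which the peaks were called is also not given, and a difference between lists cannot be told apart from such a choice. There is 1 list per name and no replicate. No difference between lists was therefore tested, the spread between cultures or cells is unknown, and the 95% intervals below (exact binomial for shares, exact Poisson for reads) cover counting error only.

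Methylation of H3K4 is laid down by the SET1 and MLL families of methyltransferases. The trimethylated form is concentrated around the start sites of active genes, and in embryonic stem cells also at CpG-rich promoters of silent developmental genes, where it lies together with the Polycomb mark H3K27me3. The dimethylated form flanks these promoters and also lies on enhancers. Regions that carry the mark in most cells are typically promoters of widely expressed genes, whereas enhancers tend to vary more from one cell state to another. An annotation of the mm9 build was not used here, so regions are given by their mm9 position, without gene names or sequences, and the identity of the cells was not checked against marker genes.

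Each peak had a score and an inner interval, a stretch that begins at the start of the peak and in many peaks ends before it. In every peak of the 3 lists, score times inner length came to a whole number of units, with 1 unit for each chromosome and list, and that whole number was taken as reads. The total for a whole chromosome, in peaks or not, was not a sum over peaks. It was taken as the chromosome length divided by the unit, with a length that gave whole numbers in all 3 lists. Added up for chromosomes 1 to 19, these totals were 2398602 for ES1, 2663168 for ES2 and 2387552 for ES3. By chromosome, ES3 had between 0.898 and 1.06 times the reads of ES1, and ES2 between 1.04 and 1.16 times. The fewest reads behind a peak lay between 8 and 10 on all these chromosomes in each list. The lists hold 25878 peaks (ES1), 21202 peaks (ES2) and 12239 peaks (ES3) on these chromosomes.

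The members held a minority of the peaks of ES1 and ES2 and most of those of ES3. They held 7786 peaks of ES1 (30.1%, interval 29.5 to 30.7), 8046 of ES2 (37.9%, 37.3 to 38.6) and 8035 of ES3 (65.7%, 64.8 to 66.5). By covered length the members contained 24.4 Mb of ES1, which is 38.6% of that list, 20.5 Mb of ES2 (44.2%) and 14.9 Mb of ES3 (65.9%). By reads in inner intervals they contained 38.4% of ES1, 44.3% of ES2 and 66.9% of ES3. Reads counted in members were 8.87% of all reads of ES1, in peaks or not, 7.11% for ES2 and 6.01% for ES3. Reads of a peak beyond its inner interval are not counted, so these shares of all reads are lower bounds. Because a member needs a peak of every list, the number of member peaks is nearly the same in each, and the shares of peaks follow from the lengths of the lists.

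A typical member was a few kilobases long and was built from 1 peak of each list. The median span from the first to the last base of a member was 3271 bp, with extremes of 502 and 17629 bp. Exactly 1 peak of every list was found in 6813 members (89.5%, interval 88.8 to 90.2). A single ES1 peak was present in 7437 members, a single ES2 peak in 7187 and a single ES3 peak in 7199. The bases covered by peaks had a median of 2599 bp per member in ES1 (quartiles 1528 to 4405), 2176 bp in ES2 (1379 to 3534) and 1675 bp in ES3 (1055 to 2454). The reads in inner intervals had medians of 22 in ES1, 20 in ES2 and 15 in ES3. Depth per peak was therefore low, and 2824 members (37.1%) had, in at least 1 list, no more than 2 reads above the fewest that any peak of that chromosome and list had. That was so in all 3 lists in 49 members (0.644%).

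**Figure D1:**
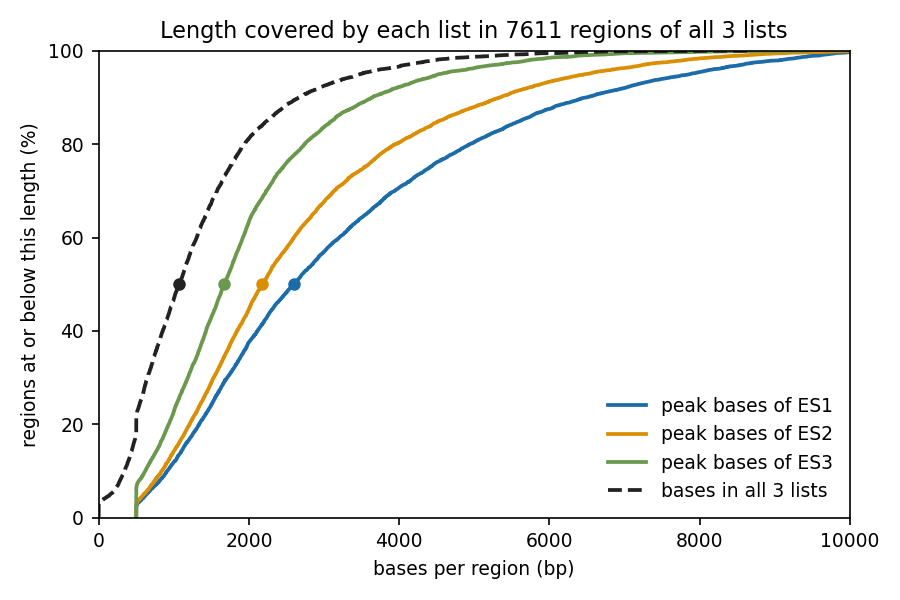
Percent of the 7611 members at or below a given length (bp, up to 10000), for the peak bases of ES1, ES2 and ES3 and, dashed, for the core (the bases covered by all 3 lists). Dots mark the medians, which are 2599 (ES1), 2176 (ES2), 1675 (ES3) and 1075 bp (core), so that the ES3 curve lies left of the ES2 and ES1 curves.

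The rule asked only that peaks be joined into 1 region, and the bases on which the lists coincided were a minor part of the span in most members. The core, meaning the bases covered by all 3 lists, was at least 1 bp long in 7373 members (96.9%, interval 96.5 to 97.3). Its median length was 1075 bp (quartiles 558.5 to 1745), or 35.2% of the span (21.0 to 51.8). The core made up at least 50% of the span in 2091 members (27.5%) and under 20% in 1750 members (23.0%). A core of at least 80% of the span was found in 181 members (2.38%), so near-identical calls in the 3 lists were uncommon. The core lay in more than 1 stretch in 350 members (4.60%). The inner intervals, over which reads were counted, shared a base in all 3 lists in 6357 members (83.5%).

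By base rather than by region, the members covered 29.7 Mb. All 3 lists covered 34.1% of these bases, or 10.1 Mb. The next largest portions were covered by ES1 and ES2 without ES3 (6.29 Mb, 21.2%) and by ES1 alone (5.68 Mb, 19.1%). Bases of ES2 alone made up 9.49%, of ES1 and ES3 without ES2 7.94%, of ES2 and ES3 without ES1 4.14%, and of ES3 alone 4.06%. A base of an ES3 peak was therefore usually covered by the other lists as well, whereas many bases of ES1 peaks were not. The core was 41.4% of the ES1 bases, 49.5% of the ES2 bases and 67.9% of the ES3 bases in members. In the 594 regions of all 3 lists that the width limit left out, which covered 9.43 Mb, the core was 37.3% of the ES1 bases, 48.5% of the ES2 bases and 82.5% of the ES3 bases.

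**Figure D2:**
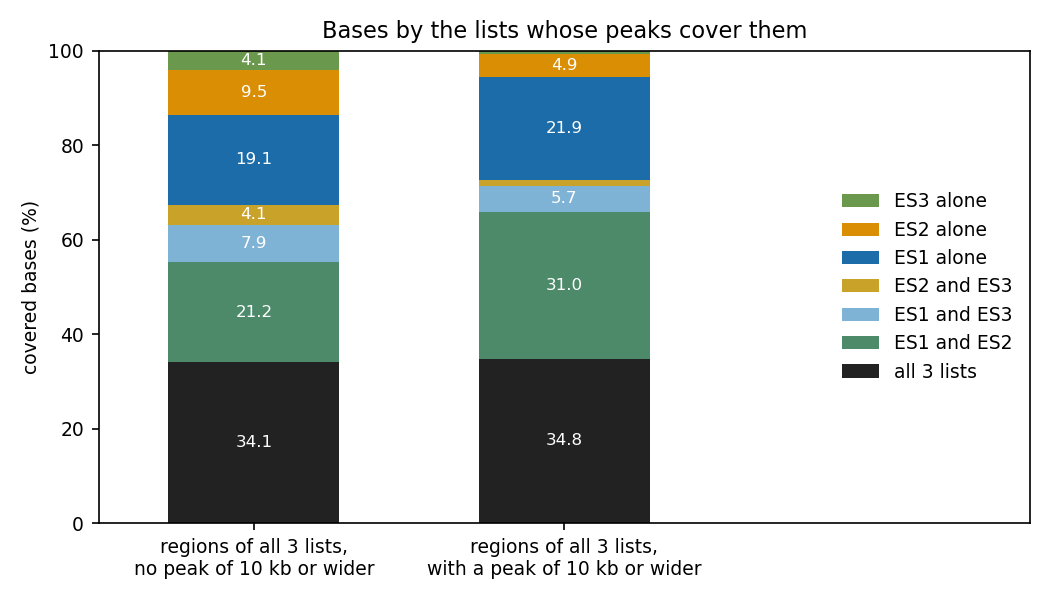
Share of the bases of a region covered by each combination of lists, in percent, for the 7611 members and for the 594 regions of all 3 lists with a peak of 10000 bp or wider. Bases of all 3 lists are 34.1% in members and 34.8% in the wider regions, while bases of ES1 and ES2 without ES3 are 21.2% and 31.0%.

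By the medians, the ends of the ES3 peak lay inside those of the ES1 peak, although the ES3 peak lay wholly within the ES1 peak in a minority of members. Among the 6813 members with 1 peak per list, the ES3 peak began a median of 196 bp after the start of the ES1 peak (quartiles -142 to 872) and ended 229 bp before its end (-114 to 945). The offsets of the ES3 peak from the ES2 peak were 117 and 152 bp, and those of the ES2 peak from the ES1 peak were 58 and 65 bp. By these medians the ends of the ES1 and ES3 peaks lay farther apart than those of either pair with ES2. The ES3 peak lay wholly within the ES1 peak in 42.4% of these members, and the reverse held in 10.3%. ES3 was within ES2 in 34.9% against 13.7% for the reverse, and ES2 within ES1 in 30.9% against 18.8%. The complete order, ES3 within ES2 within ES1, was found in 436 members (6.40%), and the opposite order in 63 (0.925%). Centres of the peaks were a median of 362 bp apart between ES1 and ES2, 403 bp between ES1 and ES3, and 388 bp between ES2 and ES3.

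ES3 stood apart from ES1 and ES2 in the bases covered by peaks more than in read density. Over all members, ES1 and ES2 differed by a similar ratio in both. The ES1 peak bases were a median of 1.46 times those of ES3 in the same member, and were greater in 75.8% of the members. The density of reads over the mean of the chromosome had a median of 14.7 in ES1, 12.5 in ES2 and 12.6 in ES3, and the ratio of ES1 to ES3 had a median of 1.15. ES1 had the most peak bases in 4069 members (53.5%), ES2 in 2447 (32.2%) and ES3 in 1079 (14.2%). The order ES1 over ES2 over ES3 in peak bases was found in 2695 members (35.4%), and the opposite order in 494 (6.49%). Density was highest in ES1 in 3709 members (48.7%), in ES2 in 1853 (24.3%) and in ES3 in 2049 (26.9%). Between ES2 and ES3 the median ratio of density was 0.986, while that of peak bases was 1.28. Between ES1 and ES2 it was 1.17 for density and 1.13 for peak bases. Density was taken only within the called peaks of each list. Its lowest value in members was 5.18 in ES1, 5.47 in ES2 and 5.92 in ES3. Stretches without a call do not enter it, so the contrast of bases with density may depend on the calling. That was not tested.

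A difference of at least 2-fold was about as frequent in members as among all regions that hold both lists. ES1 covered at least 2 times the bases of ES3 in 2487 members (32.7%), against 33.1% of the 9745 regions with peaks of both ES1 and ES3. ES3 covered at least 2 times the bases of ES1 in 302 members (3.97%), against 4.39%. For read density, ES1 was at least 2 times ES3 in 791 members (10.4%), against 9.86%. ES3 was at least 2 times ES1 in 235 members (3.09%), against 3.25%. These shares of members are near the background of the 9745 regions, most of which are members, and are not a result about members.

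Reads beyond an inner interval were not counted, so the same values were taken where the inner intervals reach the end of every peak. This set was drawn from members with 1 peak per list and held 1431 members (18.8%, interval 17.9 to 19.7). In these the median peak bases were 1846 in ES1, 1750 in ES2 and 1376 in ES3, and the median reads were 24, 21 and 15. The ratio of ES1 to ES3 had a median of 1.29 for peak bases, 1.48 for reads and 1.11 for density. Peak bases were greater in ES1 than in ES3 in 69.0% of them, reads in 78.8% and density in 62.3%. The direction of the ES1 to ES3 medians was thus the same where every base of the peak was counted. The ratio of ES1 to ES2 had a median of 1.07 for peak bases and 1.15 for density, less alike than over all members.

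**Figure D3:**
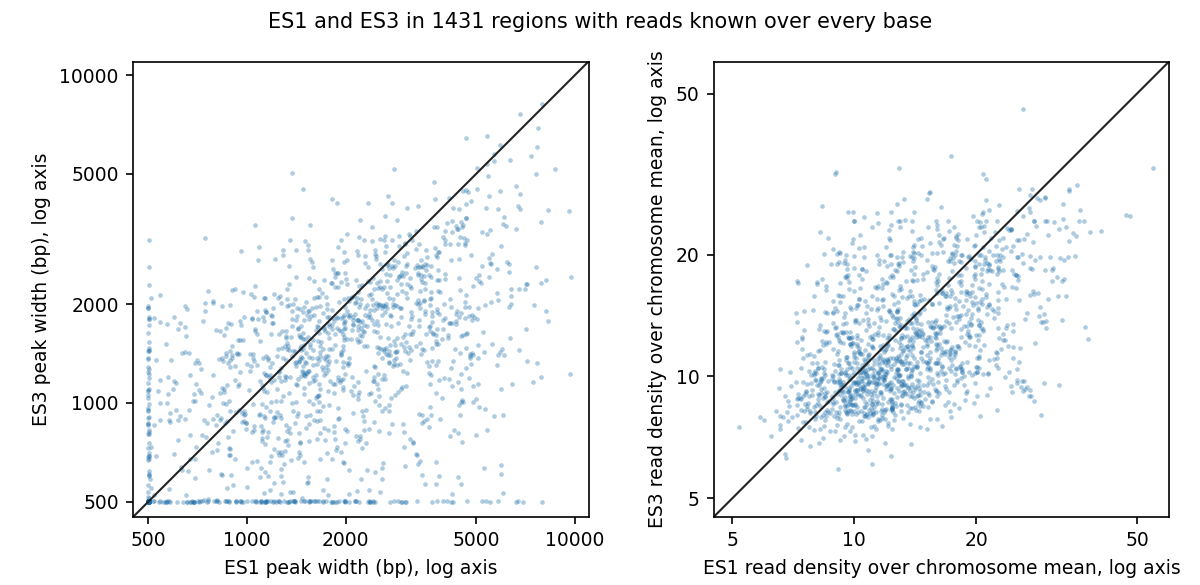
ES1 against ES3 in the 1431 members with 1 peak per list and reads known over every base. Values are peak bases in bp (left) and read density over the mean of the chromosome (right), both on log axes with a line at equal values. Points below the line have the higher value in ES1, which is so in 69.0% of these members by peak bases and in 62.3% by density, and 2 members lie beyond the end of the density axes at 60.

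A member that was wide in 1 list tended to be wide in the others, with ES3 widening least. Across the 7611 members, Spearman's rho of peak bases was 0.65 between ES1 and ES2, 0.51 between ES1 and ES3, and 0.48 between ES2 and ES3. In the 1431 members measured over every base, rho of reads was 0.52, 0.40 and 0.35 for the same pairs. These are descriptions across regions, which share their lists and their depth and are no replicates. Taken by the width of the ES1 peak, in the 6813 members with 1 peak per list, the 906 members of 500 to 1000 bp had a median ES3 peak of 942.5 bp, and the 913 members of 5000 to 10000 bp one of 2601 bp. The ES2 peak had medians of 1123 bp and 4584 bp in the same classes. Reads of ES1 had medians of 13 and 45 in these classes, those of ES2 15 and 28, and those of ES3 13 and 17. The core lengthened as well, with medians of 488, 855.5, 1207.5, 1498 and 1961 bp over the 5 classes of ES1 width. Its share of the ES3 peak had a median of 50.5% in the narrowest class and 91.7% in the widest. The core cannot be longer than the ES1 peak by which the classes were cut. A rise of its length and of its share is therefore partly built into these classes and is not a result about members.

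The members were next set beside the regions most like them, those with peaks of ES1 and ES2 and none of ES3, under the same limit on width. Regions with 1 peak each of ES1 and ES2 numbered 14232, and 7063 of them (49.6%, interval 48.8 to 50.5) also had ES3. The share with ES3 grew with the size of the narrower of the ES1 and ES2 peaks, being 36.4%, 45.3%, 60.5%, 73.0% and 89.2% over classes of 500 to 1000, 1000 to 2000, 2000 to 3000, 3000 to 5000 and 5000 to 10000 bp. It grew also with the smaller of the numbers of reads, at 40.2% for 8 to 11 reads and 81.3% for 30 or more. Within each class of width, the share was higher for 16 or more reads than for fewer, with 58.4% against 34.0% in the narrowest class and 91.2% against 85.6% in the widest. The intervals of these shares overlapped in the classes of 3000 to 5000 and of 5000 to 10000 bp. Width and reads move together here, and the part of each in these shares was not tested. A wider region is also joined to an ES3 peak more readily, since 1 bp is enough. The part of the joining rule was not tested either.

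Where ES3 was present, the ES1 and ES2 peaks were also wider, a comparison to which the same joining rule applies. Their medians were 2411 bp for ES1 and 2063 bp for ES2 in the 7063 members, against 1639 bp and 1538 bp in the 7169 regions without ES3. Over all widths, read density had medians of 14.9 for ES1 and 12.7 for ES2 in members, against 14.6 and 12.6 without ES3. Within each of the 5 classes of ES1 width, the median density of ES1 and of ES2 was higher in members. For ES1 it was 22.1 in members against 20.7 without ES3 in the class of 500 to 1000 bp, 16.1 against 13.6, 14.0 against 12.0 and 13.0 against 11.6 in the next classes, and 12.3 against 10.9 in the class of 5000 to 10000 bp. For ES2 in the widest class it was 11.0 in members against 10.5 without ES3. Density was thus lower in wider classes in both sets, and the members had more of the wide peaks. The bases shared by ES1 and ES2, as a share of the bases covered by either, had a median of 61.5% in members (quartiles 42.2 to 77.6), against 55.2% without ES3 (35.8 to 72.8), so that the quartiles of the 2 sets overlapped. By ES1 width, this overlap was 46.4% in members against 48.9% without ES3 in the class of 500 to 1000 bp, and 66.2% (42.4 to 83.7) against 44.3% (25.6 to 67.8) in the class of 5000 to 10000 bp. The difference was thus largest in the widest peaks and was turned round in the narrowest. In the widest class the ES2 peak had a median of 4697 bp in members against 2874 bp without ES3, and the ES1 and ES2 centres were 737 bp apart in members against 1037 bp. For the other pairs the list left over made less difference. The overlap of ES1 and ES3 had a median of 51.3% in members against 50.1% without ES2, and that of ES2 and ES3 52.3% in members against 49.9% without ES1.

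**Figure D4:**
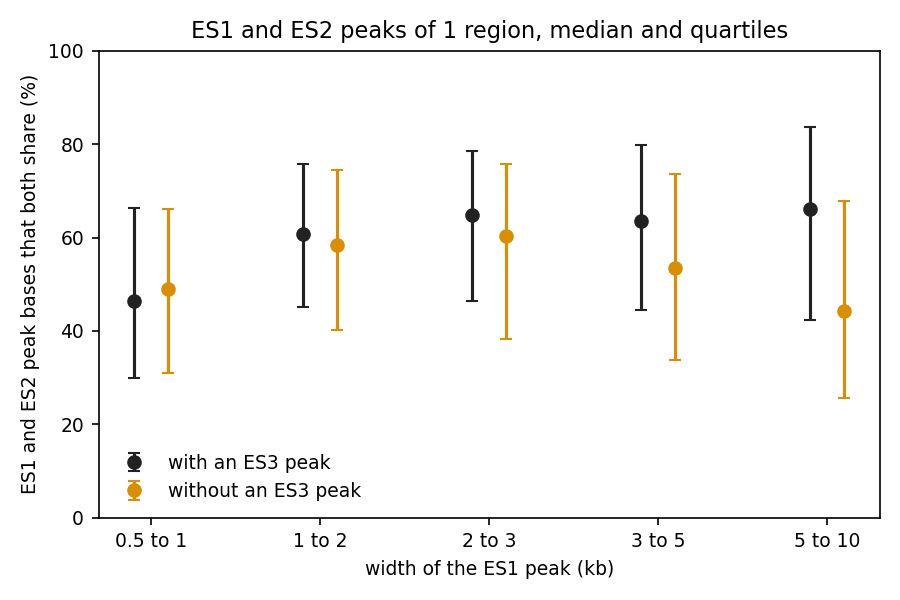
Bases shared by the ES1 and the ES2 peak, in percent of the bases covered by either, by the width of the ES1 peak in kb, for members (with an ES3 peak) and for regions without one; points are medians and bars run between the quartiles. The medians separate as the peaks widen, with 66.2% in members and 44.3% without ES3 in the class of 5000 to 10000 bp.

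Among single members, those with the longest core had long peak coverage in all 3 lists, but reads were often counted over a part of it. The longest core, 8668 bp or 86.2% of the span, lay on chromosome 8 from 12495399 to 12505456. The ES1 peak was 9042 bp wide, the ES2 peak 9752 bp and the ES3 peak 8887 bp. In ES2 it had 103 reads over the whole peak (interval 84.1 to 125), while only 3602 bp in ES1 and 2338 bp in ES3 had counted reads, with 39 and 21. The next cores were 8352 bp on chromosome 16 from 22425940 to 22442504 and 8276 bp on chromosome 4 from 118740151 to 118750247. They were followed by 8049 bp on chromosome 7 from 52668340 to 52677421, and 8022 bp on chromosome 9 from 20774619 to 20784470. On chromosome 4, ES1 had 11 reads counted over 897 of 9626 bp, while ES2 and ES3 were counted over the whole peak. On chromosome 7, ES1, ES2 and ES3 had 28, 9 and 15 reads, counted over 1339 of 9082, 501 of 8563 and 788 of 8049 bp. The region on chromosome 9 had 96 reads over the whole ES1 peak of 9203 bp (interval 77.8 to 117) and 59 over the whole ES3 peak of 8022 bp (44.9 to 76.1), so that a broad peak rested there on fewer reads in ES3.

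The members with the highest ratios of ES1 to ES3 reads had wider peaks in ES1. A ratio of ES1 to ES3 reads was taken in the 1258 members with 1 peak per list and at least 20 reads in both, and had a median of 1.36. It was highest on chromosome 9 from 78037189 to 78046466. There ES1 had 110 reads over all 9278 bp of its peak (interval 90.4 to 133). ES2 had 43 reads over 3268 of 5897 bp (31.1 to 57.9), and ES3 21 reads over 1945 of 1978 bp (13.0 to 32.1). The ratio of ES1 to ES3 was 5.24 for reads and 1.09 for density. Within their own counted stretches, ES1 and ES3 thus differed here in length and hardly in density. The density of ES3 over the rest of the ES1 peak is not known. On chromosome 2 from 29517389 to 29527378, ES1 had 93 reads over 9711 bp, ES2 66 over 6919 bp and ES3 22 over 2421 bp, a ratio of ES1 to ES3 of 4.23. The others of the highest 5 lay on chromosome 4 from 45517495 to 45528318 (4.75), on chromosome 9 from 31900099 to 31907964 (4.35) and on chromosome 17 from 31985862 to 31994198 (4.32). Their ratios of density were 0.927, 0.982 and 0.869. In the member on chromosome 17, ES3 reads were counted over 1819 of 4627 bp and ES1 reads over all 8311 bp. In each of the 5, ES2 lay between ES1 and ES3 in reads. ES3 had 20 to 22 reads in these 5 members, at or just above the minimum of 20.

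Of the 5 lowest ratios, 3 came with ES1 reads that were counted over a small part of the ES1 peak, and in these 3 the density was higher in ES1 than in ES3. On chromosome 9 from 3000491 to 3009365, the ratio of reads was 0.121, with 24 ES1 reads over 576 bp of a peak of 6702 bp, 64 ES2 reads over 2083 of 8875 bp, and 198 ES3 reads over 5464 of 8459 bp. The ratio of density was 1.14. On chromosome 4 from 128936363 to 128944311, ES1 had 22 reads over 1419 bp of a peak of 7026 bp, ES2 41 over all 4884 bp and ES3 59 over all 7949 bp, with a ratio of ES1 to ES3 of 0.373 for reads and 1.96 for density. On chromosome 4 from 136014288 to 136021579, ES1 had 21 reads over 1442 of 7126 bp and ES3 56 over all 5589 bp, with ratios of 0.375 for reads and 1.37 for density. In the other 2, which were short, density was lower in ES1 as well. The member on chromosome 4 from 64158641 to 64159198 had 44 ES1 reads, 84 ES2 reads and 121 ES3 reads, all within peaks of about 500 bp, and a ratio of ES1 to ES3 of 0.364 for reads and 0.342 for density. The member on chromosome 9 from 35112142 to 35113199 had ratios of 0.325 and 0.616.

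A few members held far more reads than the rest. All 123 libraries were of H3K4me2 or H3K4me3, with no control of unselected chromatin beside them. Whether the reads of these few members reflect the mark was therefore not tested. On chromosome 17 from 39979946 to 39985727, ES1 had 1087 reads, ES2 1074 and ES3 960, with densities of 168, 154 and 159 times the mean of the chromosome. There the lists were nearly level, and the core was 97.7% of the span. On chromosome 2 from 98502389 to 98507456, ES1 had 579 reads, ES2 1142 and ES3 1399, and this was the only member with every base in all 3 lists. The members on chromosome 9 from 35112142 to 35113199 (504 reads in ES1, 1057 in ES2, 1549 in ES3) and on chromosome 12 from 3109698 to 3110831 (414, 772 and 1085) had the same order of reads, with ES3 highest, opposite to the median reads of all members. Of these 3 members, that order held by density only on chromosome 12, at 1044, 1706 and 2623 in ES1, ES2 and ES3. The density was 808, 509 and 1838 on chromosome 2, where each list's reads were counted over part of the peak, and 954, 1807 and 1548 on chromosome 9. The member on chromosome 15 from 74915939 to 74917354 had 387, 400 and 272 reads. Among the 10 highest scores of each list, 9 regions stood in all 3 lists. Such a region has a peak of every list by construction, and only the limit on width could exclude it. That each of the 9 was a member is therefore not a finding. Of the reads counted in members, they held 1.59% (ES1), 2.64% (ES2) and 4.07% (ES3).

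In 238 members (3.13%) no base was covered by all 3 lists, the peaks having been joined through other peaks. In 172 of these ES2 and ES3 shared no base, in 42 ES1 and ES3, and in 21 ES1 and ES2. The widest spans lay on chromosome 14 from 27339291 to 27355197 (15907 bp), on chromosome 10 from 60873515 to 60886774 (13260 bp) and on chromosome 5 from 137950947 to 137962389 (11443 bp). In the last, an ES1 peak of 8158 bp with 68 reads bridged an ES2 peak of 3517 bp with 26 reads at its start and an ES3 peak of 2372 bp with 16 reads at its end. At the limit on width, the widest peaks just inside it were 9998 bp on chromosome 5 from 39071054 to 39081051, 9976 bp on chromosome 1 from 135022619 to 135032811, and 9972 bp on chromosome 19 from 23206315 to 23216680. Those just outside were 10000 bp on chromosome 7 from 140249178 to 140259177, 10001 bp on chromosome 6 from 83064665 to 83075901, and 10004 bp on chromosome 8 from 11697841 to 11709080.

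The members were spread over all 19 chromosomes, with chromosome 6 standing highest in its share. On chromosome 6, 595 of 1854 union regions were members (32.1%, interval 30.0 to 34.3), or 3.98 per Mb. The median chromosome had 24.1% and 3.05 per Mb. Reads per length on chromosome 6 were 1.00, 1.01 and 1.03 times those of the median chromosome in ES1, ES2 and ES3, so depth there was average. The other chromosomes with intervals above the share of all were 8, with 529 members (28.8%, 26.7 to 30.9), 19, with 272 (27.4%), and 7, with 540 (26.7%). The shares were lowest on chromosome 2 (21.4%, 19.7 to 23.2) and chromosome 11 (21.5%). Chromosome 11 had 1.48, 1.36 and 1.32 times the reads per length of the median chromosome in ES1, ES2 and ES3. Intervals of 5 chromosomes lay below the share of all, and without chromosome 6 the share of all was 24.1%. Per Mb, chromosome 19 had the most members, with 4.43, and chromosome 3 the fewest, with 2.11. The core was longest on chromosome 8 (median 1249 bp) and shortest on chromosome 12 (794 bp).

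**Figure D5:**
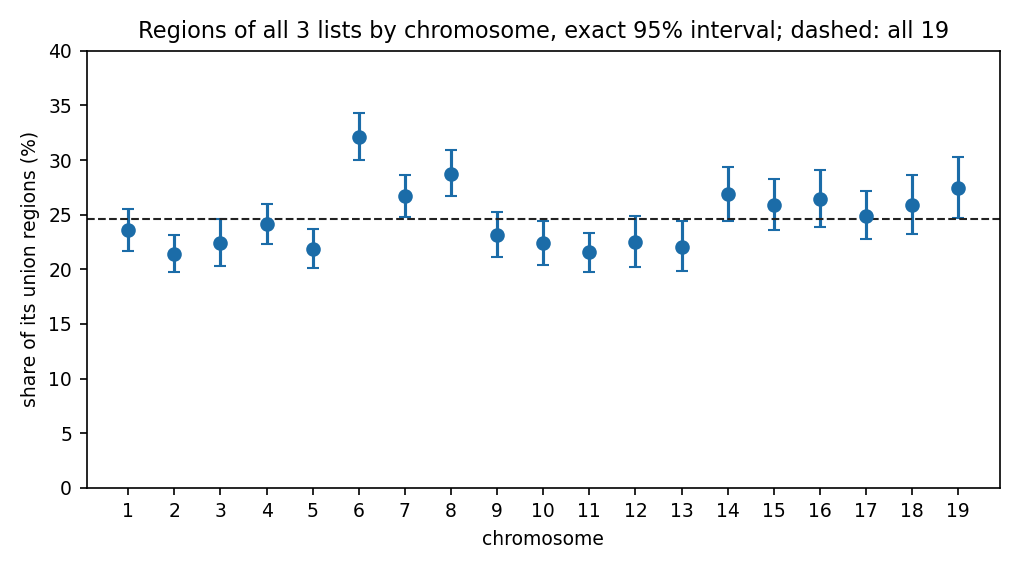
Members in percent of the union regions of each chromosome, with exact binomial 95% intervals for counting error, and a dashed line at the share of all 19 chromosomes, 24.6%. Chromosome 6 stands highest at 32.1% and chromosome 2 lowest at 21.4%.

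Members lay close to one another. The median distance from a member to the nearest other member was 23283 bp (quartiles 7897 to 70873.5), and 1240 members (16.3%, interval 15.5 to 17.1) had another within 5000 bp. Regions of ES1 and ES2 without ES3, which are of like number, were a median of 35929 bp from the nearest of their kind, with 11.4% within 5000 bp, and regions of ES1 alone 36431.5 bp, with 10.1%. All union regions together were a median of 6731 bp from the nearest other. The region that followed a member was a member in 26.9% of cases (25.9 to 27.9), against 24.1% after a region of ES1 and ES2 without ES3 and 24.6% after any union region. In 1 Mb windows, 995 of 2482 (40.1%) held no member, while 227 windows with 10 or more held 3234 members (42.5%). No such shares are given for all union regions, which also lay close together. These window counts are therefore not a result about members. The fullest windows were 76000001 to 77000000 on chromosome 15, with 32 members of 68 union regions, 52000001 to 53000000 on chromosome 7, with 31 of 75, and 148000001 to 149000000 on chromosome 7, with 27 of 62. The longest unbroken run, with no other union region between, was 9 members on chromosome 17 from 28342770 to 28418461, a stretch of 75692 bp. The longest stretch without a member, 12.3 Mb on chromosome 15 from 13025564 to 25293783, held 4 union regions in all.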

How the data were processed

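Reads were aligned with Bowtie to the mouse mm9 build, per the submitters' processing notes. The sources used here name no peak caller. The authors deposited 3 peak lists, each with positions, an inner interval and a score per peak. The score carries no unit in the deposited files. It is treated here as read density in the inner interval over the mean of the chromosome, because score times inner length is a whole multiple of 1 unit (tolerance 0.001) in 100% of peaks. Reading 1 unit as 1 read is assumed, and no source used here states whether duplicate reads were removed. The total reads of a chromosome, taken as its length over the unit, rest on the same assumption. So do the depth ratios and the shares of all reads. Union regions joined peaks that overlap by 1 bp or touch. Intervals are exact (Clopper-Pearson for shares, Poisson for reads) at the 95% level, and cover counting error only. Named regions were taken by rank. They were the 5 longest cores, the 5 highest smallest reads, and the 5 highest and 5 lowest ES1 to ES3 ratios of reads. Also taken were the 3 regions on each side of the limit whose widest peak was nearest to it. The rest were the 3 longest spans with no core, the 3 fullest windows, and members with 1 of the 10 highest scores of every list. The members and these lists were chosen with earlier results of these data known. The read recovery and the joining of peaks were tested on simulated data. No test between groups was made, since the lists have no replicates and are tied to no library. Alternatives were another joining rule, lists of equal length, inner intervals only, and members with 1 peak per list, all or only those with every base counted.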

Additional observations from a re-analysis of the deposited data

How the results depend on the processing

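No paired analysis was possible because the 3 lists have no replicates and are tied to no labelled library. Of 64 alternative values, 19 were kept and 45 moved. The number of members was kept if within 1.5 times the count, and a rank relation if equal after rounding. Any other value was kept if within the counting error. No rank relation was kept. For the values below, unless the construction of an alternative shows it, the cause was not tested. The number of members, 7611, was 7618, 7610, 5917, 8205 and 7373 with peaks within 1000 bp merged, touching peaks kept apart, a limit of 5000 bp, no limit, and a base in all 3 lists required. It was 3070 where each list had to cover at least 50% of the region, and 3835 or 2651 with each list shortened to the length of ES3 by reads or by score. The share of members with a core was 83.5% by inner intervals, and 96.9% with or without the members of the highest scores.

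With 1 peak per list, which leaves out the longer members, the median core was 1017 bp and 36.8% of the span. Medians of peak bases were then 2331 (ES1), 2026 (ES2) and 1600 (ES3), ES1 reads 21, reads per kb 14.6, 13.8 and 12.5, and rho of reads 0.29 for ES1 with ES2, 0.22 for ES1 with ES3 and 0.22 for ES2 with ES3, against 0.30, 0.25 and 0.26 over all members. By reads per kb, rho was 0.28, 0.22 and 0.22. In members more than 2 reads above the fewest in every list, an alternative chosen after seeing the data, as was the next (24 values were added so in all), the core was 1269 bp and 38.4% of the span, peak bases 2887, 2392 and 1861, reads 26, 23 and 17, and reads per kb 13.5, 12.8 and 11.3. In members with 1 peak per list and every base counted, peak bases were 1846, 1750 and 1376, and reads 24 in ES1 and 21 in ES2. Reads per kb were then 12.8, 12.2 and 11.5, and rho of reads 0.52, 0.40 and 0.35. The order of ES1, ES2 and ES3 in these medians was the same under each alternative. Reads per kb are not corrected for the depth of a list. By density over the mean of the chromosome, ES3 stood above ES2. ES1, ES3 and ES2 then had medians of 14.7, 12.6 and 12.5 in all members. In members with every base counted they had 13.0, 11.7 and 11.1.

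ES3 within ES2 within ES1 was 20.7% of members when 10% of the bases could lie outside. Chromosome 6 had 1.55 times the members of the median chromosome, 1.30 times per Mb and 1.39 times by covered length. The median distance to the nearest member was 27510 bp between centres. Shares at transcription starts and base composition were not run, since no mm9 genome or annotation was used here. Depth, with medians of 15 to 22 reads per member and list, limits the ratios of single regions.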
